A study of Homo sapiens with 6 samples.

Results

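The genes described here encode effectors that act on double-stranded RNA: the 2′-5′-oligoadenylate synthetases OAS1, OAS2 and OAS3, the OAS-like protein OASL, the protein kinase PKR (gene EIF2AK2) and the RNA-editing enzyme ADAR. Their members were taken by name: every probe set that the platform annotation gives to 1 of these 6 genes and to no other gene, which made 13 of 54675 probe sets and 6 of 19775 named genes. The arrays compared CL1-0, the poorly invasive line, with CL1-5, the highly invasive line, 2 lung adenocarcinoma cell lines that share the parental line CL1. Each line gave 3 arrays of total RNA, called biological repeats in the labels, from cells grown in RPMI with serum and antibiotics and with no other agent named. Each line is a single subline, so a difference between them may belong to these sublines and cannot be told apart from one that goes with invasiveness. Each array measured RNA pooled from many cells, in which fewer cells expressing a gene and less RNA per cell cannot be told apart.

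Double-stranded RNA is a mark of viral infection and also arises from the cell's own repeats. The OAS enzymes bind it and make 2′-5′-linked oligoadenylates (2-5A), a second messenger that leads to RNA decay, while OASL lacks that enzyme activity and acts on the RNA sensor RIG-I. PKR, once bound to double-stranded RNA, phosphorylates the translation factor eIF2 and slows protein synthesis. ADAR changes adenosine to inosine within double-stranded RNA, which keeps the cell's own RNA from setting off these sensors. All are known as interferon-stimulated genes, transcribed when the factor ISGF3 binds an interferon-stimulated response element, whose core is a pair of GAAA units on 1 strand.

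The promoters are shown because the members moved together. Promoter windows from RefSeq (GRCh38.p14, 250 bases before to 50 after each listed start) were matched by symbol for 4 of the 6 members, OAS1, OAS3, EIF2AK2 and ADAR. Each stretch below is the 150 bases before a start, 5′ to 3′ on the gene's own strand, except that of EIF2AK2, which runs to position 4 after it so as to hold a whole motif. Capitals mark matches to GAAANNGAAA or GAAANGAAA, searched on both strands with overlaps allowed. OAS1 lies at chr12:112906812-112906961 on the plus strand, OAS3 at chr12:112938324-112938473 on the plus strand, EIF2AK2 at chr2:37156977-37157130 on the minus strand and the outermost ADAR start at chr1:154627998-154628147 on the minus strand.
OAS1: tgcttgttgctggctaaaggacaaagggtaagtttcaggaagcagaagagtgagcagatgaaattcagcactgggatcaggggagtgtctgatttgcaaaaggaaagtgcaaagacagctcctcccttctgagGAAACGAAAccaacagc
OAS3: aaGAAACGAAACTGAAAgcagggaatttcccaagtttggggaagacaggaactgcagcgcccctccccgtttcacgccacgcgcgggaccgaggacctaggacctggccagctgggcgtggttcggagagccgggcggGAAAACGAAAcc
EIF2AK2: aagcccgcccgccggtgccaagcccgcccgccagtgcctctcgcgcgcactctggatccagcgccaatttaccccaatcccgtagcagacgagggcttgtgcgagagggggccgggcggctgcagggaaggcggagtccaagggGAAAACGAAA
ADAR: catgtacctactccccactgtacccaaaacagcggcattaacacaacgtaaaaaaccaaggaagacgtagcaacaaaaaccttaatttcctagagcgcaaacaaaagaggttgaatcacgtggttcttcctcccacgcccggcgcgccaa

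OAS1 held 1 match with a single base between the units, GAAACGAAA at positions -17 to -9. OAS3 held 3 matches, GAAACTGAAA at -143 to -134, which overlaps GAAACGAAA at -148 to -140, and GAAAACGAAA at -12 to -3. The same bases, GAAAACGAAA, lay in EIF2AK2 at -6 to 4. None of the 3 ADAR windows held either motif, which says only that these letters are not in those windows. Of all 35116 windows in the table, 3.57% held the form with 2 bases between the units, 3.12% the form with 1 base and 6.40% either form. A match describes the letters and was not tested for binding.

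The 6 arrays had medians of 30.2 to 30.9 signal units and differed far more between lines than within them. Across genes, which are not independent replicates, Pearson's r of arrays from the same line was 0.989 to 0.996, and that of arrays from different lines 0.856 to 0.866. The 40th percentile of each array, 19.5 to 20.3 units, stood in for background. Of the markers of other cells, the leukocyte genes PTPRC, CD14, LYZ and CLEC4C lay at or under that percentile on all 6 arrays. CD3E and ITGAM lay above it on all 6, averaging 24.6 and 36.5 units in CL1-0 and 23.7 and 37.5 in CL1-5. The summed signal of 6 leukocyte markers was 99.0 to 113 units in CL1-0 and 97.7 to 106 in CL1-5. Fibroblast markers summed to 84.3 to 102 and 84.3 to 91.1 units, with COL1A1 and COL1A2 above the percentile on all 6 arrays and DCN at or under it. Endothelial markers summed to 67.7 to 85.5 units in CL1-0 and 140 to 154 in CL1-5, the line in which PECAM1 was higher, with CDH5 dim on all 6 arrays; their part in the results was not tested. The labelled cell type was only partly borne by its markers. KRT18 averaged 46.5 units in CL1-0 and 4222 in CL1-5 and KRT8 49.4 and 555, both in probe sets of the cross-hybridising kind. EPCAM averaged 29.3 and 10.3, CDH1 41.9 and 35.2, and KRT7 85.0 and 96.0. Of the 2 KRT7 probe sets tested, 1 passed as higher in CL1-5 by the test described below. The lung lineage factor NKX2-1 averaged 26.9 and 25.0, near background in both lines. Other lung lineage genes were brighter, SFTPB at 36.5 and 38.0, NAPSA at 47.9 and 38.4 and SFTPC at 99.0 and 92.5. KRT19 and SFTA2 were dim on all 6 arrays. The log2 ratio of 3′ to 5′ control signal, a sign of RNA quality, was, for ACTB, 0.71 ± 0.40 (SD) over the 3 arrays of CL1-0 and 0.54 ± 0.32 over those of CL1-5 (exact two-sided permutation p = 0.5, where 0.1 is the smallest that 3 against 3 arrays can give). For GAPDH it averaged 0.16 ± 0.09 and 0.08 ± 0.10 (exact permutation p = 0.4), and the part of RNA quality in the results was not tested.

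All 6 genes were higher in CL1-5. The increase ran from 2.58-fold for ADAR to at least 91.2-fold for OAS1, and in each of the 13 probe sets every CL1-5 array lay above every CL1-0 array. With limma, p-values adjusted by Benjamini-Hochberg over every feature in the fit and a threshold of 0.05, 6 of 6 genes passed as higher, against 23.3% of the 14828 genes tested. Of those genes 28.3% passed as lower, 51.6% passed in either direction, and 26.6% had every CL1-5 array above every CL1-0 array. All 13 probe sets passed as higher, against 19.8% of the 33777 tested, of which 24.6% passed as lower and 24.0% had all CL1-5 arrays above the CL1-0 arrays. The members and the lists below were chosen with earlier results of these data known, so such shares describe them and test nothing. A probe set was tested where at least 3 arrays exceeded the 40th percentile. OAS1 205552_s_at and OAS2 228607_at had no such CL1-0 array and entered only through CL1-5, which nearly fixed their direction and lack of overlap. Among the listed genes below, the same held for TLR3, SOCS1 and ZBP1. OAS1 202869_at, OAS2 204972_at and OAS3 232666_at had 2 of 3 CL1-0 arrays at or under that percentile. They too passed the filter only with the help of CL1-5 arrays, which favoured a higher call. The gene calls of OAS1 and OAS2 rest on probe sets of these kinds. The median log2 fold change of CL1-5 over CL1-0 was 3.90 over the 6 genes and -0.03 over all genes tested. Fold changes here are on the log2 scale after 6.85 units, the 10th percentile of the whole table, were added to each signal, which understates the change of dim probe sets. Where a line lay at or under background on all 3 arrays or on average, the fold is a lower bound.

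**Figure D1:**
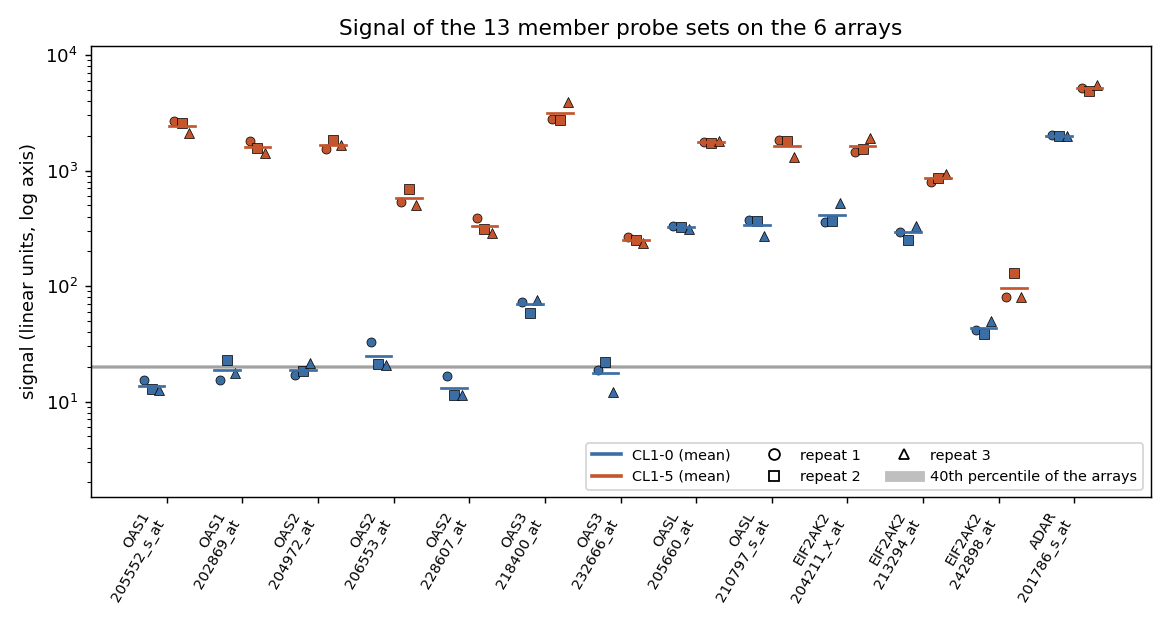
Signal of each of the 13 member probe sets (linear units on a log axis) on the 3 CL1-0 and 3 CL1-5 arrays, 1 symbol an array, with a bar at each line's mean and a grey band at the arrays' 40th percentiles. In every probe set the CL1-5 arrays lie above the CL1-0 arrays, and OAS1 and OAS2 lie near or under the band in CL1-0 while ADAR is bright in both lines.

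OAS1, the smallest of the synthetases, was at background in CL1-0 and bright in CL1-5. Its probe set 205552_s_at read 15.3, 12.9 and 12.7 units in CL1-0 repeats 1, 2 and 3, and 2661, 2589 and 2103 in CL1-5. The groups did not overlap, and all 3 CL1-0 arrays lay under the 40th percentile, so that the increase is given as at least 91.2-fold (log2 fold change 6.90, SE 0.12, adjusted p = 8.8e-10). Probe set 202869_at read 15.3, 23.0 and 17.8 units in CL1-0 and 1818, 1563 and 1409 in CL1-5, an increase of at least 57.7-fold. In both OAS1 probe sets CL1-5 repeat 3 was the lowest of its line. Without CL1-5 repeat 1, 2 or 3, the brighter probe set no longer exceeded the 40th percentile on 3 arrays, and the other one gave log2 fold changes of 5.88, 5.99 and 6.06 for the gene. With the filter set at 2 arrays instead, the brighter one gave 6.84, 6.86 and 7.01 for OAS1.

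OAS2, a synthetase whose OAS domain is duplicated, was at or near background in CL1-0 and higher in CL1-5 in all 3 of its probe sets. Probe set 204972_at read 16.9, 18.3 and 21.5 units in CL1-0 and 1541, 1825 and 1658 in CL1-5. The lines did not overlap and CL1-0 averaged 18.9 ± 2.37 (SD), at background, which puts the increase at no less than 61.5-fold (log2 fold change 6.03, SE 0.11, adjusted p = 1.2e-09). Probe set 206553_at read 32.8, 21.1 and 20.7 units in CL1-0, just above background, against 535, 696 and 505. It rose by 4.21 on the log2 scale (SE 0.18). Probe set 228607_at read 16.8, 11.4 and 11.5 units against 390, 312 and 290, an increase of at least 12.5-fold. With repeats 1 and 2 alone OAS2 was represented by 206553_at (4.21), since 204972_at failed the filter.

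OAS3, whose OAS domain is triplicated and which makes long 2-5A chains, was measurable in both lines. Probe set 218400_at read 73.4, 58.9 and 76.4 units in CL1-0 and 2774, 2753 and 3943 in CL1-5. It was thus above background on every array, and its mean rose from 69.6 ± 9.35 to 3157 ± 681 units (SD, n = 3), a fitted 41.0-fold increase with a 95% interval of 32.0 to 52.5 (adjusted p = 1.4e-08). Probe set 232666_at read 18.8, 22.1 and 12.2 units against 267, 252 and 234, an increase of at least 9.41-fold. CL1-5 repeat 3 was the highest of its line in the first OAS3 probe set and the lowest in the second.

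OASL, the OAS-like protein with a ubiquitin-like tail, was expressed in both lines and rose less. Probe set 205660_at read 330, 325 and 313 units in CL1-0 and 1769, 1748 and 1801 in CL1-5. Its means were 323 ± 9.0 and 1773 ± 26.6 units (SD, n = 3), a narrow spread in both lines, and the fitted increase was 5.40-fold with a 95% interval of 4.82 to 6.06 (log2 fold change 2.43, SE 0.07, adjusted p = 1.6e-08). Probe set 210797_s_at read 371, 367 and 274 units against 1830, 1804 and 1299, with repeat 3 the lowest in both lines and a 4.79-fold increase. The log2 fold changes of these OASL probe sets differed by 0.17, with overlapping arrays (exact two-sided unpaired permutation p = 0.5). Between same-numbered arrays the first OASL probe set differed by 2.40, 2.40 and 2.5 and the second by 2.28, 2.28 and 2.22, so the first was the larger in all 3 pairs.

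EIF2AK2, the gene for PKR, was higher in CL1-5 in all 3 of its probe sets, by less than the synthetases. Probe set 213294_at, which stood for the gene, read 295, 248 and 331 units in CL1-0 and 790, 859 and 935 in CL1-5. The lines did not overlap, and the fitted increase was 2.92-fold with a 95% interval of 2.42 to 3.53 (log2 fold change 1.55, SE 0.12, adjusted p = 7.5e-06). Probe set 204211_x_at, of the kind that can cross-hybridise, read 356, 368 and 523 units against 1448, 1538 and 1909, a 3.91-fold increase. The dimmest, 242898_at, read 41.6, 38.7 and 49.6 units against 80.2, 129 and 79.9, a 2.02-fold increase (log2 fold change 1.01, SE 0.19, adjusted p = 0.0031 over all probe sets). Repeat 3 was the highest of each line in the first and second of these probe sets, and in the dimmest CL1-5 repeat 2 was the highest.

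ADAR was bright in both lines, and its increase was the smallest of the 6 genes. Its 1 probe set, 201786_s_at, read 2037, 2002 and 1973 units in CL1-0 and 5188, 4886 and 5484 in CL1-5. The means were 2004 ± 32.0 and 5186 ± 299 units (SD, n = 3), without overlap, and the fitted increase was 2.58-fold with a 95% interval of 2.32 to 2.87 (log2 fold change 1.37, SE 0.07, adjusted p = 3.9e-07). ADAR makes a long interferon-inducible and a short constitutive protein from different starts, and 1 probe set gives 1 value that does not part them.

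**Figure D2:**
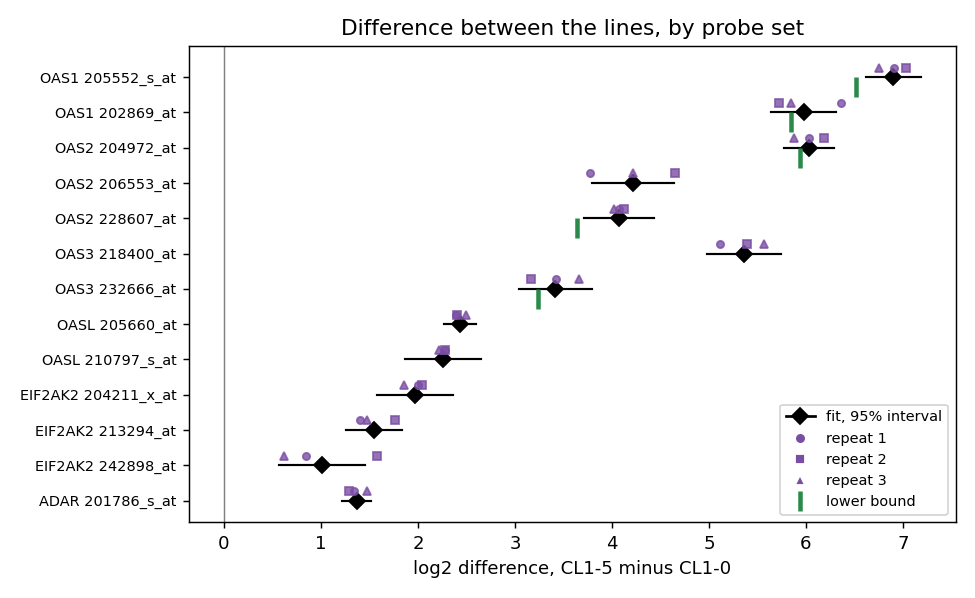
Log2 difference of CL1-5 minus CL1-0 for each member probe set: diamonds with 95% intervals from the fit, purple symbols for same-numbered repeats, and green ticks for lower bounds where CL1-0 lay at background. No interval reaches 0, the OAS1, OAS2 and OAS3 values lie between 3.41 and 6.90, and those of OASL, EIF2AK2 and ADAR between 1.01 and 2.43.

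The size of the increase, read from 1 probe set a gene, differed among the members. OAS1 and OAS2, both at background in CL1-0 and given as bounds, have no order between them. Of the other 14 pairs of genes, 13 had array differences that did not overlap between the lines, and each of these had an exact two-sided permutation p of 0.1, the smallest that 3 against 3 arrays can give (0.107 adjusted over all 15 pairs). OAS3 rose by 2.93 more than OASL on the log2 scale, and OASL by 0.89 more than EIF2AK2 and 1.07 more than ADAR. Such gaps depend on the probe set taken. Fitted values differed by 1.96 between OAS2 204972_at and 228607_at and by 1.94 between OAS3 218400_at and 232666_at, dim ones being bounds. Between EIF2AK2 204211_x_at and 242898_at they differed by 0.95. None of these overlapped (exact unpaired permutation p = 0.1 each), while the OASL pair and OAS2 206553_at against 228607_at did (0.17 and 0.14). EIF2AK2 and ADAR differed by 0.18, with overlapping arrays (exact unpaired permutation p = 0.2). Between same-numbered arrays EIF2AK2 differed by 1.40, 1.76 and 1.48 on the log2 scale in repeats 1, 2 and 3, and ADAR by 1.35, 1.28 and 1.47. Counting the gene itself, 405 of the genes tested (2.73%) rose at least as much as OASL by the fitted value, 750 (5.06%) as much as EIF2AK2 and 864 (5.83%) as much as ADAR.

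The partners of the 2-5A pathway changed in both directions. Of the 3 listed genes tested, 1 was higher and 2 were lower (against 23.3% and 28.3% of all genes). ABCE1, a ribosome recycling factor, averaged 1335 ± 218 units (SD) in CL1-0 and 669 ± 92.8 in CL1-5 (log2 fold change -0.99, SE 0.14, adjusted p = 3.7e-04). PDE12, a phosphodiesterase that breaks down 2-5A, was lower (-0.33, SE 0.09), and AKAP7, whose central domain also cleaves 2-5A, was higher (0.47, SE 0.10). The lowering of ABCE1 held in both of its probe sets tested, that of PDE12 in 1 of 3.

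Genes around PKR were mostly lower in CL1-5 while PKR itself was higher. Of 11 listed genes, all tested, 0 were higher and 8 lower against 28.3% of all genes tested called lower, and the list's median log2 fold change was -0.55. The PKR activator PACT (PRKRA, -0.26) and the PKR-binding inhibitor TARBP2 (-0.45) fell, as did the heme-regulated and endoplasmic reticulum eIF2 kinases EIF2AK1 (-0.55, SE 0.08) and EIF2AK3 (-0.88, SE 0.09). EIF2S1, the alpha subunit of eIF2 that these kinases phosphorylate, fell by 0.55 (SE 0.13) from 2624 ± 335 to 1798 ± 259 units (SD). The phosphatase subunits that reverse this mark fell too, PPP1R15A by 0.86 (SE 0.10) and PPP1R15B by 0.92 (SE 0.10). DDIT3, the stress factor CHOP, was the largest fall of the list, from 2201 ± 277 to 787 ± 159 units (-1.49, SE 0.15, adjusted p = 3.8e-05). ATF4, the factor translated when eIF2 is phosphorylated, had a log2 fold change of -0.02 (adjusted p = 0.87), and the amino acid sensor EIF2AK4 and the PKR inhibitor DNAJC3 did not pass (0.17 and 0.08). In the fit over all probe sets, 1 of 3 for EIF2S1, 1 of 2 for TARBP2 and 1 of 2 for EIF2AK1 passed as lower, the 1 of PRKRA did not pass, and 1 of 4 for DNAJC3 passed as higher. The PRKRA call was lost without CL1-0 repeat 1 or 2 (adjusted p = 0.13 and 0.094) and without CL1-5 repeat 1, 2 or 3 (0.062, 0.13 and 0.079). With a block for the repeat EIF2AK4 passed as higher (adjusted p = 0.041), so that 1 gene of the list was higher.

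ADAR's relatives and other proteins that bind double-stranded RNA had no common direction. Of 14 listed genes 11 were tested, 3 higher and 3 lower, near the 23.3% and 28.3% of all genes, with a median of -0.01. ADARB1, the second catalytically active editing enzyme, rose from 44.0 ± 3.37 to 91.9 ± 5.90 units (SD; log2 fold change 0.96, SE 0.10) in 1 of 4 probe sets, the others not passing, and ADARB2, for which no editing activity is known, was dim in both lines (-0.01, adjusted p = 0.97). ZBP1, the sensor of left-handed Z-form RNA, was at least 1.18-fold higher, at 12.5 units in CL1-0 and 24.9 in CL1-5. Of the microRNA-processing nucleases, DROSHA rose by 0.70 (SE 0.08) and DICER1 was lower (-1.16, SE 0.34), the latter not without CL1-5 repeat 1 (adjusted p = 0.066) or 2 (0.078). The double-stranded RNA-binding genes STAU2 (-0.98, SE 0.11) and STRBP (-1.52, SE 0.11) fell. With a block for the repeat 5 genes of the list were higher, STAU1 and DHX9 among them (adjusted p = 0.019 and 0.0026), and ILF2 was lower (0.010).

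The sensors that read the same RNA rose with the members. Of 8 genes, all tested, 6 were higher, against 23.3% of all genes, and 0 lower, with a median of 1.52. The cytosolic helicase sensor IFIH1 (MDA5) rose from 110 ± 7.91 to 2379 ± 152 units (SD; log2 fold change 4.35, SE 0.09, adjusted p = 2.2e-09) and RIGI (RIG-I) from 174 ± 24.2 to 3214 ± 118 (4.16, SE 0.11). A second RIGI probe set rose by 3.66, while another, of the cross-hybridising kind, was lower (-0.55, adjusted p = 0.027). The endosomal receptor TLR3 was at least 7.36-fold higher, the regulator DHX58 rose by 1.52 and the RIG-I ubiquitin ligases TRIM25 and RNF135 by 1.53 and 0.33. The mitochondrial adaptor MAVS did not pass (-0.13, adjusted p = 0.23), nor did TICAM1, the TLR3 adaptor (0.31, adjusted p = 0.055), which passed with a block for the repeat (0.011) and without CL1-5 repeat 1 (0.019). Of the 4 MAVS probe sets tested, 1 passed as lower in the fit over all probe sets. Windows of RIGI, IFIH1, TLR3 and TRIM25 held a GAAA pair, 4 of 6 genes of this list with a window, against 1 of 7 in the interferon pathway list (SOCS1), 1 of 9 among the clearance enzymes (PNPT1), 0 of 10 around PKR, 0 of 11 among ADAR's relatives and 0 of 3 in the 2-5A list. Genes with several starts have several windows, so these counts by gene cannot be set against the 6.40% of all windows that held either form. No share over all genes was counted, the lists are short, and the difference between lists was not tested.

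Of the interferon pathway, IRF9, IRF7, IRF1, USP18, SOCS1 and JAK1 were higher and the receptor chains did not pass. Of the 10 listed genes tested, 6 were higher and 0 lower (against 23.3% and 28.3% of all genes), with a median of 1.86. IRF9, the DNA-binding part of ISGF3, rose from 337 ± 23.3 to 2561 ± 148 units (SD; log2 fold change 2.90, SE 0.09, adjusted p = 1.5e-08). IRF7, which drives interferon alpha genes, rose by 5.46 (SE 0.09), IRF1 by 2.71, the feedback protease USP18 by 3.05 and the kinase JAK1 by 1.02. The feedback inhibitor SOCS1 was at least 15.4-fold higher. Without CL1-5 repeat 1, 2 or 3 its bright probe set failed the filter and another gave 0.04, 0.15 and 0.10 (adjusted p = 0.83, 0.38 and 0.55). The receptor chains IFNAR1 and IFNAR2 had log2 fold changes of -0.18 and -0.43 (adjusted p = 0.20 and 0.16). IFNAR1 passed as lower without CL1-0 repeat 3 (0.046), and IFNAR2 without CL1-5 repeat 3 (0.013) and with a block for the repeat (0.0023). Of their probe sets, 1 of 4 for IFNAR1 and 2 of 3 for IFNAR2 passed as lower in the fit over all probe sets. IRF3 and TYK2, at 0.05 and -0.05, did not pass.

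Among 9 enzymes that clear RNA and DNA from the cell, 8 were tested, 3 higher and 0 lower (against 23.3% and 28.3% of all genes), with a median of 0.25. The mitochondrial RNA exonuclease PNPT1 rose from 1805 ± 105 to 5176 ± 149 units (SD; log2 fold change 1.52, SE 0.07), the nucleotide hydrolase SAMHD1 by 2.88 (SE 0.14) in 5 of 5 probe sets and RNASEH2C by 0.81 (SE 0.15). With a block for the repeat RNASEH2A and RNASEH2B passed as higher (adjusted p = 0.0029 and 0.040) and the RNA helicase gene SUPV3L1 as lower (0.0062), which made 5 higher and 1 lower. Probe sets disagreed for XRN1, a cytoplasmic RNA exonuclease, of which 2 of 4 passed as higher while the brightest did not (-0.12), and for RNASEH2B, with 1 of 3 higher and 1 lower.

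**Figure D3:**
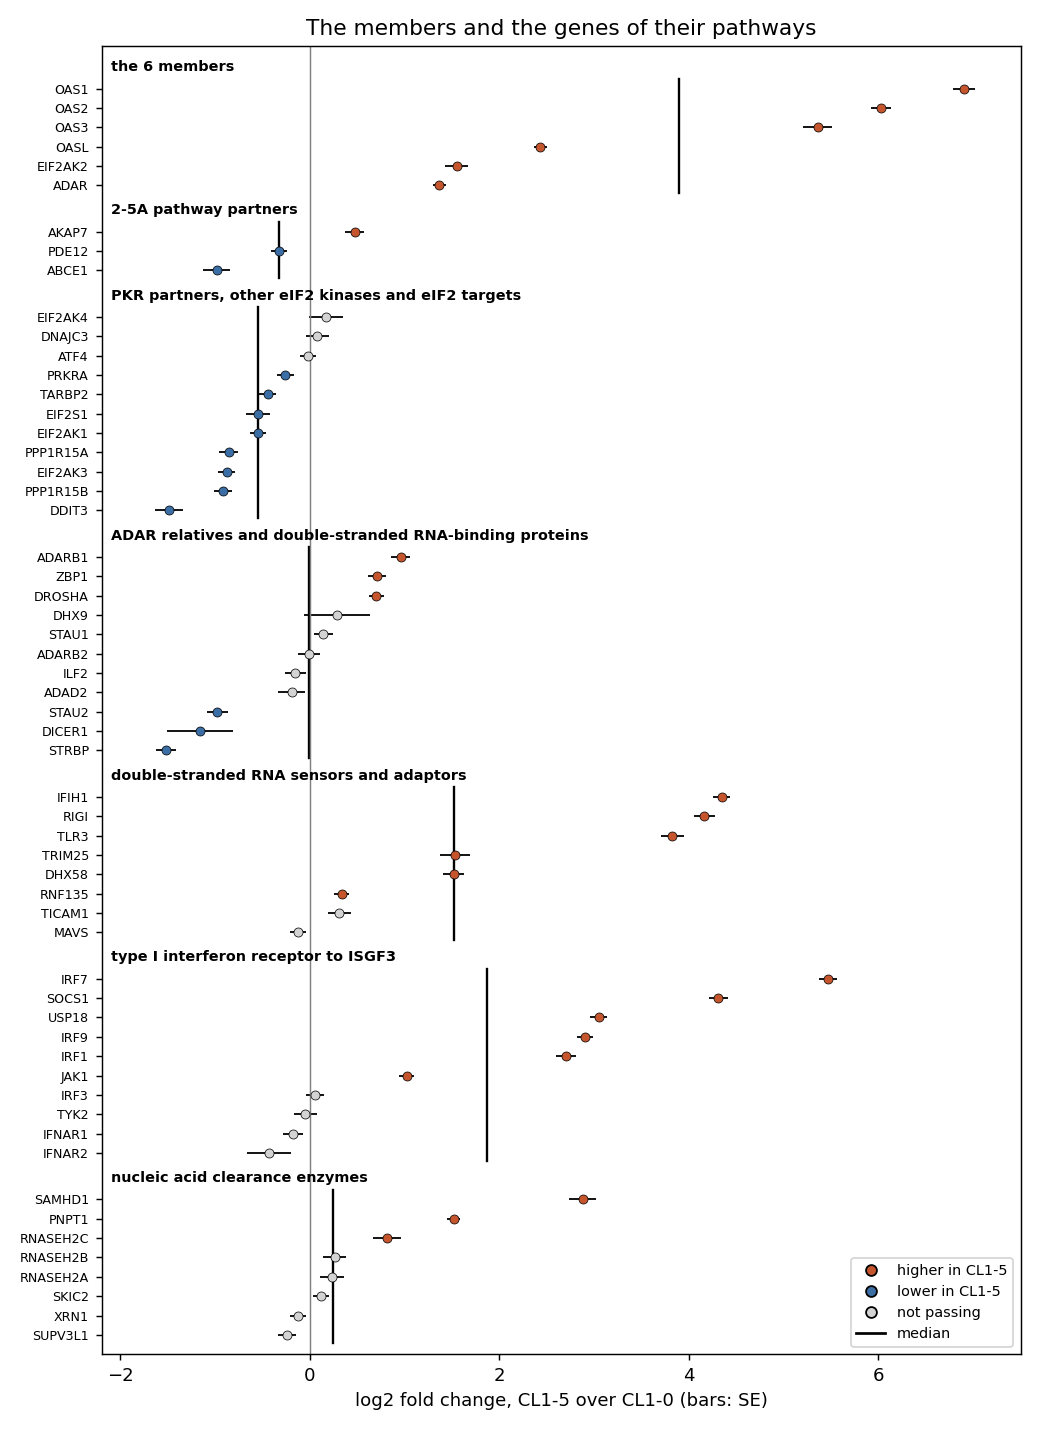
Log2 fold change of CL1-5 over CL1-0 with its SE for the 6 member genes and every tested gene of the 6 lists, 1 probe set a gene. Colour gives the call at an adjusted p under 0.05 and black bars the median of each group, which is 3.90 for the members, -0.55 for the genes around PKR and 1.52 for the sensors.

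Each member had a higher log2 fold change than every tested gene beside it on the chromosome. Not all of the nearest genes were tested, among them those directly beside OASL. OAS1, OAS3 and OAS2 follow each other on chromosome 12 with 0 protein-coding genes between them, and OASL lies on the same chromosome 61 genes further. The 3 nearest protein-coding genes on either side of each locus came to 24, of which 18 were tested, 2 higher and 6 lower (against 23.3% and 28.3% of all genes), with a median log2 fold change of -0.08. Next to the OAS cluster, RPH3A (0.10) and DTX1 (0.22) did not pass, and the ribosomal protein gene RPL6 (-0.22) and the phosphatase gene PTPN11 (-0.30) were lower. PTPN11 did not pass with its probe set of largest interquartile range (-0.28, adjusted p = 0.75). Beside OASL the ATP-gated channel gene P2RX4 rose by 0.62 (SE 0.11). Beside EIF2AK2, which rose by 1.55, GPATCH11 fell by 2.01 (SE 0.12), from 183 ± 22.9 to 40.2 ± 4.66 units (SD). HEATR5B (-0.59) and CEBPZOS (-0.51) fell with GPATCH11. Beside ADAR, PBXIP1 rose by 0.49 and PMVK was lower (-0.42, adjusted p = 0.041). PMVK did not pass without CL1-0 repeat 1 (0.14) or 2 (0.0998) or without CL1-5 repeat 2 (0.062) or 3 (0.11). With a block for the repeat CAMKK2, beside OASL, passed as higher (0.69), and STRN and UBE2Q1 as lower (-0.26 and -0.16).

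**Figure D4:**
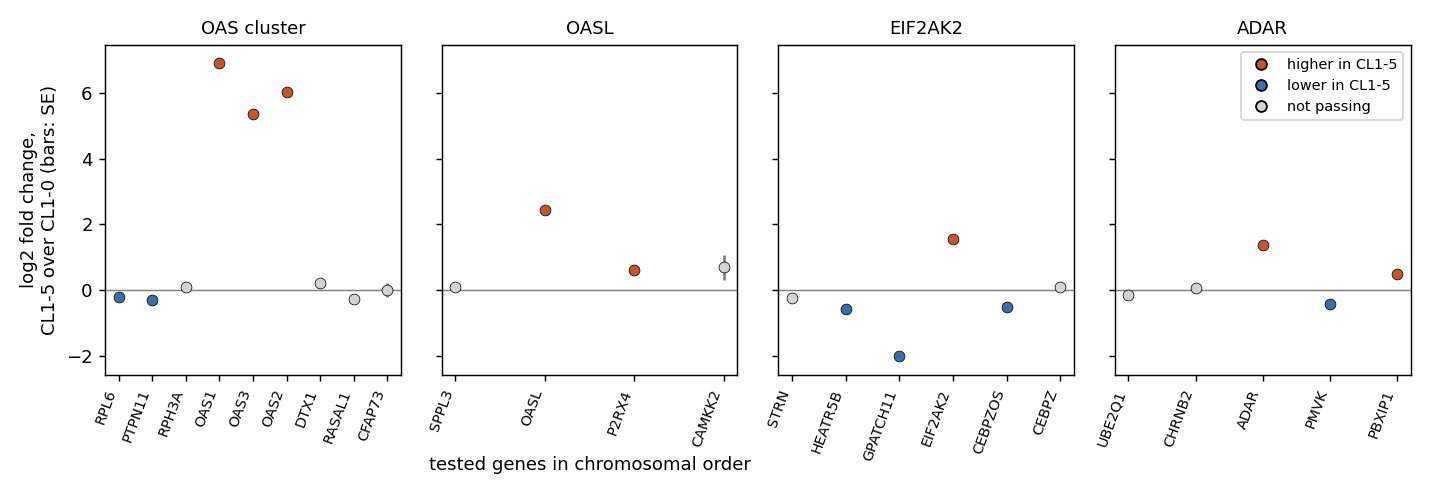
Log2 fold change of CL1-5 over CL1-0 with its SE for the members and the tested genes among the 3 nearest on each side, in chromosomal order at the 4 loci. The OAS1, OAS3 and OAS2 points lie between 5.36 and 6.90, and the tested neighbours of the cluster between -0.30 and 0.22.

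Genes with the most similar profile were found by the root mean square distance between log2 profiles over the 6 arrays, each centred on its own mean, which weighs both the difference between lines and the repeats. Nearest to OAS1 were IFI27 (0.10), DTX3L (0.16) and JAG1 (0.16), and to OAS2 IL1A (0.09), CHRNA9 (0.09) and XAF1 (0.10). For OAS3 they were NT5E (0.14), IRF7 (0.15) and SFRP1 (0.17), and for OASL IL15 (0.05), MRPS2 (0.06) and NNMT (0.07). For EIF2AK2 they were ITGA6 (0.05), RUBCN (0.07) and WNT5A (0.08), and for ADAR PARP4 (0.03), ARHGAP22 (0.05) and DPY19L4 (0.05). IL1A, CHRNA9, XAF1, IFI27 and DTX3L, like OAS1 and OAS2, were near or under background in CL1-0. IL15 was too, averaging 9.18 units there against 323 for OASL, so that its distance to OASL depends on the added constant. Its increase is given as at least 3.19-fold. With 2 lines such distances mainly describe the size of 1 difference.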

How the data were processed

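The authors deposited 1 table for the 6 arrays, which holds an intensity per probe set, not log-transformed; the array medians are nearly equal. Per the submitters' processing notes the tool was MAS5. Its version, its target and what followed it are not given in the sources used. No value lies at 0 or below, and detection calls were not used. The platform annotation gave the gene names (41091 with 1 gene symbol, 1801 with several, 11721 with none, 62 controls), and symbols were updated by gene identifier to RefSeq (GRCh38.p14) for 41037. The files name no genome build, so coordinates are printed only for RefSeq promoter windows.

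Values became log2(signal + 6.85). A probe set was tested where it exceeded its array's 40th percentile on at least 3 arrays. Each gene took its probe set with the highest mean, one without the suffix x where another passed. A linear model in limma 3.58.1 (R 4.3.3), with a prior variance that follows the mean signal, was fitted to all 33777 probe sets and to all 14828 genes, with Benjamini-Hochberg adjustment over each. P-values measure the spread between 3 repeats a line. The steps were tested on simulated data with noise independent between arrays, which leaves out the shared deviation of same-numbered arrays described below. For a bound, each dim value under its array's 40th percentile was raised to that percentile.

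Over genes, arrays of the same number deviated together (correlations of 0.475, 0.280 and 0.649 for repeats 1, 2 and 3), which meets the rule for pairing by number, though the labels state no shared day. The model and permutation tests reported are unpaired, and a fit with the repeat as a block is an alternative. The members and the 6 lists were chosen with earlier results of these data known. Some listed genes are not reported here. Named genes are the members, the listed genes, the 3 nearest neighbours on each side and the 3 nearest profiles for each member. The 24 alternatives, with their effect in the closing section, changed the constant, filter, scaling, prior variance, array weights, probe set, block, arrays and threshold.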

Additional observations from a re-analysis of the deposited data

How the results depend on the processing

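All 6 member genes were higher in CL1-5 under each of the 24 alternatives, with 10 to 13 member probe sets called, fewer only where dim ones failed the filter on 3 arrays. Over the alternatives the log2 fold change was 5.19 to 5.47 for OAS3, 2.28 to 2.45 for OASL, 1.44 to 1.70 for EIF2AK2 and 1.3 to 1.41 for ADAR. Called genes numbered 2692 to 4566 higher and 3268 to 5729 lower. With the replicate number as a block the genes around PKR had 1 higher call, ADAR's relatives 5 higher, the interferon pathway list 1 lower and the clearance enzymes 5 higher and 1 lower, and the replicate block changed no member's call. With array weights the sensors had 1 lower call, the interferon pathway 3 lower and the clearance enzymes 6 higher and 1 lower, and the sign turned for ADARB2 (0.083), IRF3 (-0.033), CFAP73 (-0.16), CHRNB2 (-0.10) and DTX1 (-0.013). With the probe set of largest interquartile range for each gene the clearance enzymes had 1 lower call, and MAVS (0.069), IFNAR1 (0.39), XRN1 (1.39) and RNASEH2B (-1.48) turned sign, the alternative being another probe set. With repeats 1 and 2 alone the interferon pathway had 1 lower call, and IRF3 (-0.052) and CFAP73 (-0.17) turned sign. At an adjusted p under 0.01 the 2-5A partners had 1 lower call. With 1 array left out the interferon pathway had 0 to 1 lower calls, and 9 genes that passed in no such fit turned sign. Their ranges were -0.017 to 0.17 for DNAJC3, -0.020 to 0.31 for EIF2AK4, -0.11 to 0.027 for ATF4, -0.082 to 0.11 for ADARB2, -0.096 to 0.58 for DHX9, -0.18 to 0.021 for TYK2, -0.022 to 0.10 for IRF3, -0.25 to 0.14 for CFAP73 and -0.031 to 0.12 for CHRNB2. With the filter then set at 2 arrays the turned values were the same: ATF4 at 0.021, 0.023 and 0.027, ADARB2 at 0.11, 0.00071 and 0.022, TYK2 at 0.021 and 0.016, CFAP73 at -0.25, -0.072 and -0.0073, and 1 each of DNAJC3 (-0.017), EIF2AK4 (-0.020), DHX9 (-0.096), IRF3 (-0.022) and CHRNB2 (-0.031). The cause of these turns was not tested. Signal over background limits OAS1 and OAS2 to bounds, and 3 arrays a line limit the precision.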
